A study of Citrus unshiu with 6 samples.

Results

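Transcripts of 5 genes of the circadian clock and of photoperiod signalling were followed in the peel of Satsuma mandarin, namely LHY (orange1.1t00580), GIGANTEA (Cs3g21790), LUX (Cs6g16820), APRR5 (Cs5g16360), and CONSTANS-LIKE 16 (Cs7g26690). They were taken by gene ID from a table of 23099 genes, all 5 were found in it, and each name is that of the best protein match given there. The genes were picked with their levels in these libraries already known, so the values are a description and carry no test. Normal peel (CK) and peel with roughing disorder (RD) came from “Yamashitabeni wase” trees (Citrus unshiu). Fruit was taken at 3 stages counted in days after full bloom (DAFB), that of cell division at 30 DAFB, that of cell enlargement at 80 DAFB, and maturity at 170 DAFB. All trees were grafted on trifoliate orange and were under regular orchard care, and RD was induced by severe fruit removal that left only upward fruits, whereas CK trees kept their crop. Each of the 6 conditions (CK30, RD30, CK80, RD80, CK170, and RD170) was 1 library made from a pool of triplicate peel samples, so the spread between pools is not known. Tree, fruit load, and fruit position cannot be told apart from the disorder. The hour of collection was not given in the sources used here, and a difference in hour cannot be told apart from a difference between stages or peels.

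In plants the clock is a loop of transcription factors that repress each other in turn over the day. In Arabidopsis LHY, a MYB factor, peaks around dawn and represses genes of the later day, the pseudo-response regulators (APRR family) follow and repress LHY, and GIGANTEA and LUX belong to the evening. LUX acts in the evening complex with EARLY FLOWERING 3 and EARLY FLOWERING 4, and GIGANTEA links the clock to day length through CONSTANS and FLOWERING LOCUS T (FT). CONSTANS-LIKE proteins are zinc finger factors of the B-box family. Many genes of photosynthesis are under clock and light control in leaves and green fruit.

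Values are FPKM, fragments counted on a transcript and scaled both for its length and for the reads mapped in the library, so levels of different genes can be set side by side. A gene was counted as higher or lower when 2 libraries differed at least 2-fold in FPKM, with at least 1 FPKM in the higher one. Judged by the most common ratio to CK170 among genes of low FPKM, the libraries were at most 3.67% deeper than CK170. In each library 20339 to 20997 genes had FPKM above 0. Over genes that reached 1 FPKM in CK and RD alike, the median log2 ratio of RD to CK was 0.43 at 30 DAFB, 0.09 at 80 DAFB, and -0.11 at 170 DAFB, and ratios are therefore also given after subtracting it (median-adjusted). Of the listed peel markers, 5 to 7 of 7 chlorophyll a-b binding proteins and 4 to 7 of 10 limonene synthases reached an FPKM of 1 in each library. Among the cuticle markers, CER1 (Cs1g02760), 2 to 3 of the 5 listed 3-ketoacyl-CoA synthases, and 7 to 9 of 10 lipid-transfer proteins did. Of 10 listed seed proteins, the 3 oleosins and storage proteins summed to 7.83 to 17.4 FPKM. Nearly all of this was oleosin 1 (orange1.1t03751), while the 2 others of these stayed at or below 0.51. The rest of the seed list, late embryogenesis abundant proteins, summed to 228 FPKM in CK30 and up to 1366 in CK170. Most of that was Lea5 (Cs9g04210), with 223 in CK30 and 1350 in CK170. In bulk peel, fewer cells that express a gene and less transcript per cell cannot be told apart.

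Where 3 levels are given for a peel, they are those at 30, 80, and 170 DAFB in that order. LHY, the dawn factor, had far more transcript in growing than in mature peel of both kinds. At the 3 stages in turn CK peel had 135, 338, and 9.24 FPKM, and RD peel had 103, 384, and 22.65. In RD80 it ranked 159th among the genes expressed there, in RD170 5246th, and in CK170 10149th. The highest 2 libraries were those at 80 DAFB and the lowest 2 those at 170 DAFB, and neither the pair at 80 DAFB nor the pair at 30 DAFB differed 2-fold.

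GIGANTEA took the opposite place, with its highest levels at maturity. From 30 through 80 to 170 DAFB the FPKM was 26.2, 45.2, and 230.15 in CK peel and 62.1, 36.6, and 186.8 in RD peel. Both mature libraries were at least 3.01-fold above every younger one, and between neighbours among the 4 younger libraries the ratio was at most 1.39.

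APRR5, a pseudo-response regulator, was close to absent from young control peel and was likewise highest at maturity. Over the stages CK peel had an FPKM of 0.45, 2.02, and 24.6, and RD peel one of 4.04, 0.70, and 15.2. The 6 libraries stood in the same order for APRR5 as for GIGANTEA, from CK170 through RD170, RD30, CK80, and RD80 down to CK30. Among 13089 other genes with a mean FPKM of at least 5, the order of GIGANTEA was found in 205 (1.57%), APRR5 included, and both genes had been chosen with their levels known. As APRR5 lay below an FPKM of 1 in CK30 and RD80, its ratios rest on low values there, and their counting error is not known.

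LUX, the MYB-like DNA-binding member of the evening complex, had the narrowest range of the 5, 4.22-fold from lowest to highest. CK peel had 5.39, 9.46, and 11.9 FPKM at the successive stages, whereas RD peel had 22.7, 14.5, and 6.97. It was ordered by stage in opposite ways in the 2 peels, lowest at 30 DAFB in CK and highest at 30 DAFB in RD. No 2 neighbours in the order of its levels differed 2-fold.

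CONSTANS-LIKE 16 had the widest range, 509-fold, and was above CK in RD peel at each stage. The levels in CK peel were 3.67, 30.2, and 0.12 FPKM from the first stage to the last, and those in RD peel were 18.0, 61.1, and 2.0 FPKM. Both peels peaked at 80 DAFB and were lowest at 170 DAFB, as for LHY. A further gene with the same best match, Cs2g12490, is described with its family, and reads shared by the 2 cannot be told apart in this table.

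**Figure D1:**
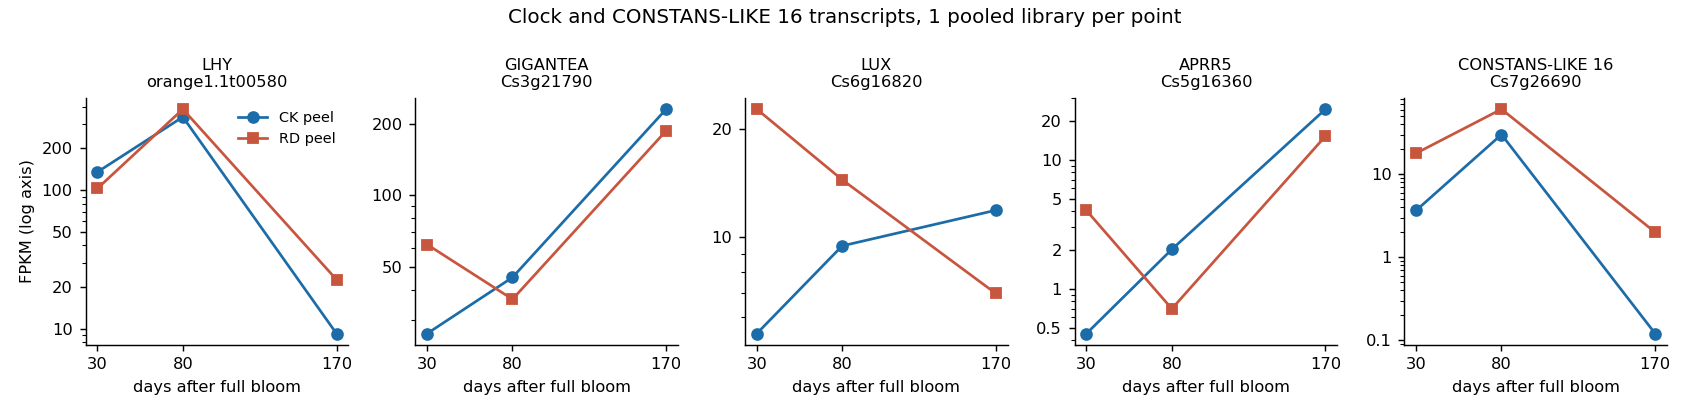
FPKM (log axis) of LHY, GIGANTEA, LUX, APRR5, and CONSTANS-LIKE 16 against days after full bloom, with circles for CK peel and squares for RD peel. Each point is 1 pooled library, so no error bars are drawn. LHY and CONSTANS-LIKE 16 were highest at 80 DAFB (384 and 61.1 in RD80) and lowest at 170 DAFB, whereas GIGANTEA and APRR5 were highest at 170 DAFB (230.15 and 24.6 in CK170).

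At 30 DAFB, RD peel exceeded CK peel at least 2-fold for 4 of the 5 genes and was lower for none, where over all 17419 genes tested 25.6% were higher and 6.34% were lower. The genes had been chosen on this stage, so nothing is read from that count. APRR5 had a log2 ratio of 3.17 (8.98-fold), CONSTANS-LIKE 16 of 2.29 (4.89-fold), LUX of 2.08 (4.22-fold), and GIGANTEA of 1.24 (2.37-fold). LHY was the exception, with -0.39. Median-adjusted, the values were 2.73, 1.86, 1.64, 0.81, and -0.83, so GIGANTEA no longer reached 2-fold, and 13.9% of all genes were then higher and 10.8% lower. Among all genes tested, 341 had a ratio at least as high as APRR5 and 3174 one at least as high as GIGANTEA, while 2356 had one as low as LHY or lower. Heat shock proteins, a list for sample handling, moved at the same stage: 13 of 25 were higher and 2 lower, and their FPKM summed to 2368 in CK30 and 8875 in RD30. Chlorophyll a-b binding proteins were higher for 6 of 7, with a sum 2.05-fold that of CK30, and limonene synthases for 2 of 5 and lower for 1, with a sum 2.25-fold that of CK30. CER1 was higher, with 3.57 in CK30 and 7.59 in RD30. Among the 3-ketoacyl-CoA synthases 1 of 3 was higher and 1 lower, and 1 of 8 lipid-transfer proteins was lower and none higher. The part of these markers in the clock values was not tested.

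At 80 DAFB the peels were closer, and the genes went in different directions. CONSTANS-LIKE 16 was higher in RD peel with a log2 ratio of 1.02, just past 2-fold, and one of 0.93 after median adjustment. APRR5 was lower with -1.53, at 0.70 against 2.02. LHY (0.19), GIGANTEA (-0.30), and LUX (0.61) were within 2-fold. In all, 5.2% of 17402 genes were higher and 4.86% were lower at this stage, or 4.28% and 5.63% median-adjusted. Heat shock proteins summed to 3145 in CK80 and 1879 in RD80, with 5 of 26 lower and none higher. Limonene synthases summed to 974 and 816, with 3 of 7 lower and none higher. Among chlorophyll a-b binding proteins 1 of 7 was higher and none lower, with sums of 12876 and 11943. Lipid-transfer proteins were higher for 1 of 9 and lower for none, with sums of 732 and 951. CER1 and the 3-ketoacyl-CoA synthases tested were within 2-fold. The part of these markers in the values at 80 DAFB was not tested.

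At 170 DAFB, LHY and CONSTANS-LIKE 16 were higher in RD peel, whereas GIGANTEA, LUX, and APRR5 had less transcript there without reaching 2-fold. LHY had a log2 ratio of 1.29 (2.45-fold) and CONSTANS-LIKE 16 of 4.06 (16.7-fold). The latter rests on an FPKM of 0.12 in CK170, for which the counting error is not known, and 99 of 17143 genes had a ratio at least as high. GIGANTEA had -0.30, LUX -0.77, and APRR5 -0.69, or -0.19, -0.66, and -0.59 median-adjusted. Over all genes 8.14% were higher and 10.1% were lower. LHY and CONSTANS-LIKE 16 stayed past 2-fold after median adjustment, the latter with 4.17. On that scale 9.22% of all genes were higher and 8.71% lower. Chlorophyll a-b binding proteins summed to 125 in CK170 and 1201 in RD170, with 4 of 6 tested higher, and heat shock proteins to 3029 and 6018. Of the cuticle markers, CER1 had 55.6 in CK170 and 1.76 in RD170. The 3-ketoacyl-CoA synthases summed to 66.9 and 30.2, and lipid-transfer proteins to 612 and 1056. Limonene synthases summed to 581 and 542. The part of greener peel or of any of these markers in the clock values was not tested.

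**Figure D2:**
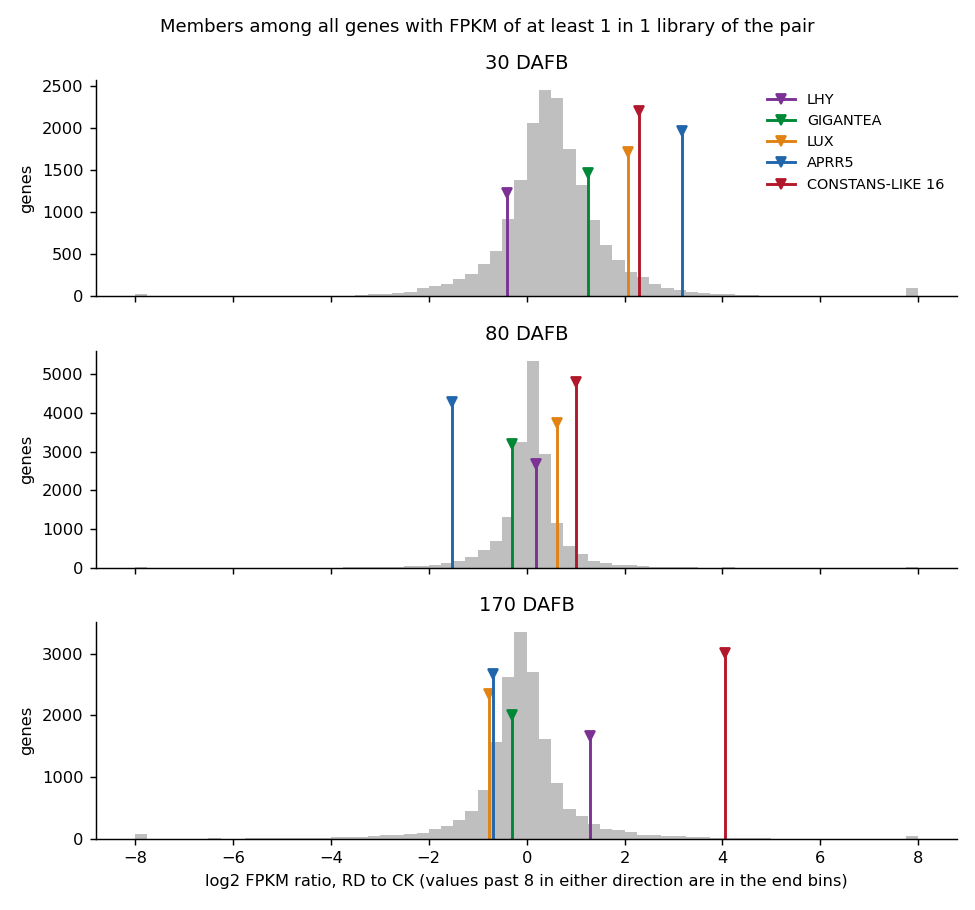
Distribution of the log2 FPKM ratio of RD to CK over all genes with FPKM of at least 1 in 1 library of the pair (grey bars, number of genes per 0.25 log2 units), with the 5 genes marked by coloured lines whose heights have no meaning. At 30 DAFB the grey distribution is centred above 0, and APRR5 (3.17), CONSTANS-LIKE 16 (2.29), and LUX (2.08) lie in its upper flank. At 170 DAFB only CONSTANS-LIKE 16 (4.06) and LHY (1.29) of the 5 are past 2-fold.

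From 30 to 80 DAFB, LHY and CONSTANS-LIKE 16 were at least 2-fold higher at the later stage in both peels. LHY was 2.49-fold higher in CK and 3.73-fold in RD peel, and CONSTANS-LIKE 16 8.22-fold and 3.40-fold. APRR5 went in opposite directions, 4.49-fold higher in CK peel and 5.77-fold lower in RD peel, both with an FPKM below 1 in 1 library. GIGANTEA had log2 steps of 0.78 in CK and -0.76 in RD peel, and LUX of 0.81 and -0.65, so both were under 2-fold with opposite signs. Over this step 23.4% of all genes in CK peel were higher and 9.06% lower, and in RD peel 7.15% and 9.44%. Median-adjusted, the shares were 16.3% and 13.1% in CK peel and 7.25% and 9.24% in RD peel. In CK peel 3 of the 5 genes were higher and none was lower, and in RD peel 2 were higher and 1 lower, on either scale.

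From 80 to 170 DAFB, LHY and CONSTANS-LIKE 16 were lower and GIGANTEA and APRR5 higher in both peels. LHY was 36.5-fold lower in CK170 than in CK80 and 17.0-fold lower in RD170 than in RD80. GIGANTEA was higher by nearly the same factor in both, 5.09-fold in CK and 5.11-fold in RD peel. APRR5 was 12.2-fold higher in CK and 21.7-fold higher in RD peel. CONSTANS-LIKE 16 was 251.5-fold lower in CK and 30.5-fold lower in RD peel. LUX had a log2 step of 0.33 in CK peel and was 2.07-fold lower in RD peel. In CK peel 2 genes were higher and 2 lower, against 14.8% and 17.5% of all genes, and in RD peel 2 were higher and 3 lower, against 8.77% and 17.7%. The median-adjusted counts of the 5 genes were the same, beside 11.5% and 20.4% of all genes in CK peel and 8.98% and 17.4% in RD peel. In CK peel, 382 of 17703 genes had a fall as deep as that of LHY or deeper, and in RD peel 340 of 17601.

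A ratio of 2 genes within 1 library does not depend on how libraries are scaled to each other. LHY exceeded GIGANTEA 5.16-fold in CK30 and 1.66-fold in RD30, 7.47-fold in CK80 and 10.5-fold in RD80. At maturity GIGANTEA exceeded LHY instead, 24.9-fold in CK170 and 8.25-fold in RD170. Between peels the ratio of LHY to GIGANTEA was 3.11-fold lower in RD30 than in CK30, 1.41-fold higher in RD80 than in CK80, and 3.02-fold higher in RD170 than in CK170. That of LHY to LUX was 5.55-fold lower in RD peel at 30 DAFB and 4.18-fold higher at 170 DAFB, with 1.34-fold lower at 80 DAFB. That of LHY to APRR5 was 11.8-fold lower at 30 DAFB, 3.29-fold higher at 80 DAFB, and 3.96-fold higher at 170 DAFB. All 3 ratios were thus lower in RD peel at 30 DAFB and higher at 170 DAFB, and they share the LHY value.

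**Figure D3:**
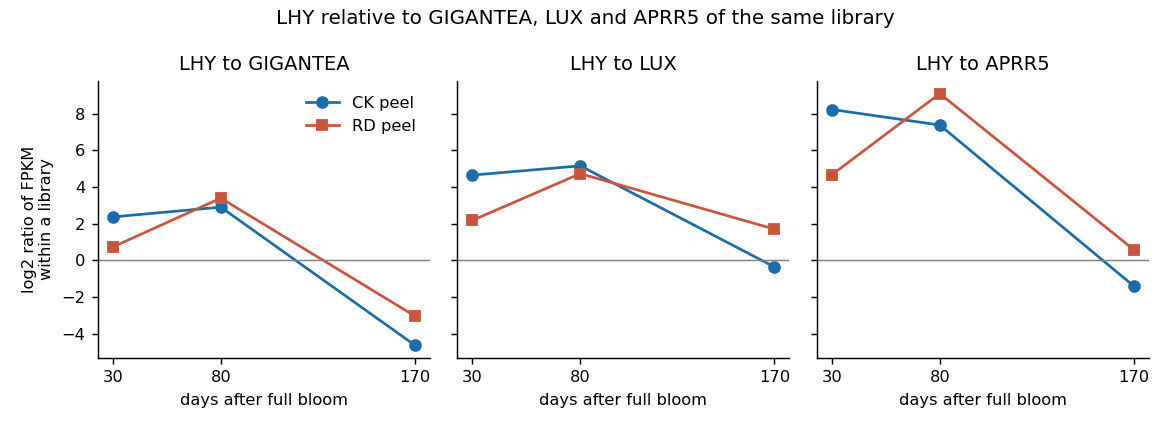
Log2 ratio of the FPKM of LHY to that of GIGANTEA, LUX, and APRR5 within each library, against days after full bloom (circles CK, squares RD, 1 pooled library per point, line at equal FPKM). RD30 lies below CK30 in each panel (0.73 against 2.37 for GIGANTEA), and RD170 lies above CK170 (-3.04 against -4.64).

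The other clock genes were taken by their protein descriptions, which gave 14 genes with LHY, GIGANTEA, LUX, and APRR5 among them, all with FPKM of at least 1. At 30 DAFB 5 of the 14 were higher in RD peel and none was lower, beside 25.6% and 6.34% of all genes. GIGANTEA, LUX, and APRR5 are among the 5 and had been chosen on this stage, so nothing is read from that count. The median log2 ratio of the 14, the chosen genes included, was 0.85, beside 0.48 over all genes tested. Median-adjusted, 4 of the 14 were higher, LUX and APRR5 among them, beside 13.9% of all genes. With levels divided by those of ACTIN 8 were higher. ACTIN itself had 247 in CK30 and 215 in RD30, so this scaling raises the ratio of every gene at 30 DAFB. The share of all genes on that scale was not computed, and nothing is read from that count. At 80 DAFB 1 was lower and none higher (median 0.08 beside 0.10), and at 170 DAFB 1 was higher and none lower (median -0.24 beside -0.11). With the CONSTANS-LIKE genes added, the count past 2-fold upward in RD peel was 9 of 20 tested for the 30 DAFB pair. It was 2 for the 80 DAFB pair, with 1 gene lower, and 3 of 19 for the 170 DAFB pair. The 9 include 4 of the 5 genes chosen on that first stage. Shares of all genes past 2-fold, upward then downward, were 25.6% and 6.34% in the first pair. They were 5.2% and 4.86% in the second, and 8.14% and 10.1% in the third. Median-adjusted, the upward counts became 7, 1, and 4, beside 13.9%, 4.28%, and 9.22% of all genes. Leaving out the 5 genes chosen at the start, 5 of 15 were higher at 30 DAFB, beside 25.6% of all genes. Median-adjusted, 4 of the 15 were higher, beside 13.9% of all genes. The median log2 ratio of the 15 was 0.84, beside 0.48 over all genes tested.

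In the evening complex, ELF4-LIKE 1 (Cs8g20200), a small partner protein, had 2.99, 3.98, and 4.81 FPKM in CK peel and 12.3, 6.34, and 9.43 FPKM in RD peel. Its log2 ratios between the peels were 2.04, 0.67, and 0.97, the last of which passed 2-fold when median-adjusted. Another ELF4-like protein (Cs2g12095) had 10.5, 18.4, and 32.1 in CK and 29.2, 18.0, and 29.7 in RD peel, so its peels were past 2-fold at 30 DAFB alone (1.48). The 2 genes matched to EARLY FLOWERING 3, the scaffold of the complex, stayed within 2-fold at every stage. Cs1g19130 had log2 ratios of 0.31 (-0.12 median-adjusted), -0.54, and -0.34, and Cs4g18880 of 0.77, 0.30, and 0.01. ELF4-LIKE 4 (Cs1g17650) had -0.05, -0.33, and -0.26.

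The other pseudo-response regulators varied far less than APRR5. APRR7 (Cs6g03960), the most abundant clock transcript after LHY by its mean, had 63.0, 87.6, and 128 FPKM in CK peel and 113, 75.2, and 148 FPKM in RD peel, and at no stage did the peels differ 2-fold. APRR1 (orange1.1t04712), the match of the Arabidopsis evening gene TOC1, had 9.14, 12.6, and 37.1 in CK and 17.3, 16.1, and 23.9 in RD peel, with log2 ratios of 0.92, 0.35, and -0.63. Between CK80 and CK170 it was higher with a log2 step of 1.56. TIME FOR COFFEE (Cs9g06630), XAP5 CIRCADIAN TIMEKEEPER (Cs8g09050), and LWD1 (Cs2g14970), clock-associated proteins first known in Arabidopsis, were within 2-fold between peels at each stage. The largest difference among them was that of TIME FOR COFFEE at 170 DAFB (-0.88).

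**Figure D4:**
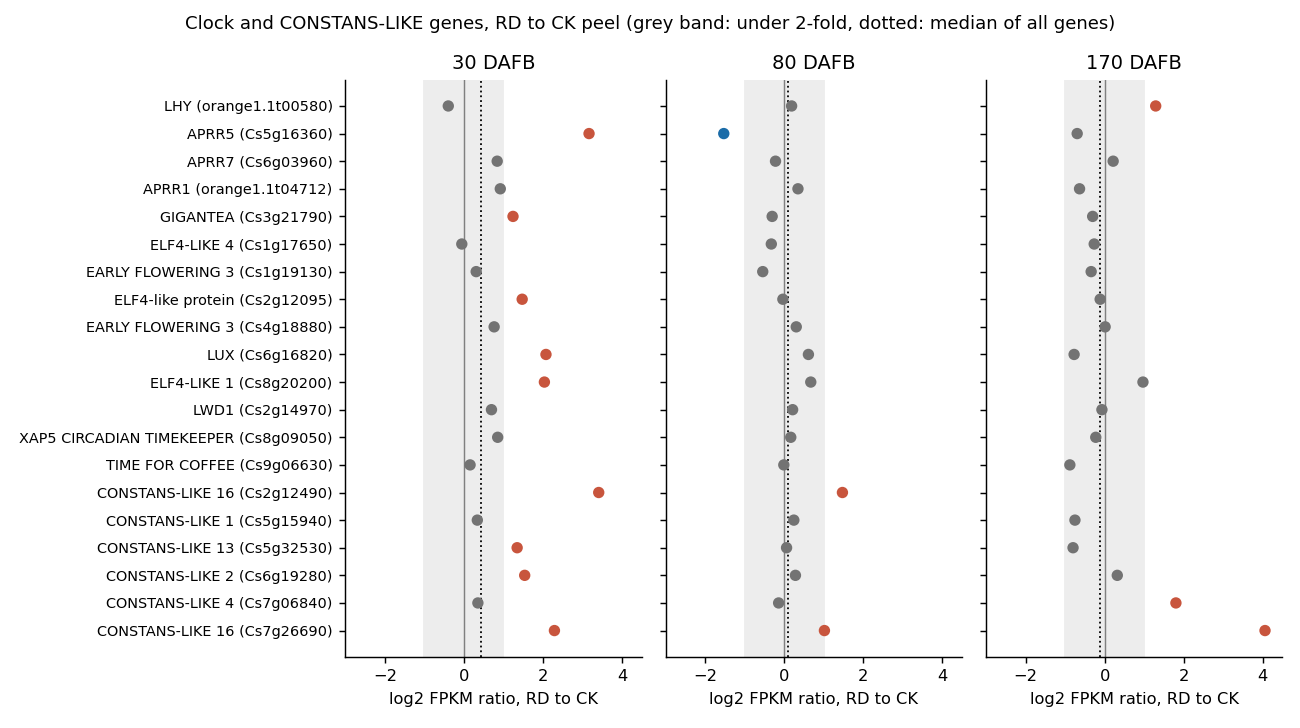
Log2 FPKM ratio of RD to CK for the 20 clock and CONSTANS-LIKE genes that reached an FPKM of 1 in at least 1 library, at 30, 80, and 170 DAFB. Each dot compares 2 pooled libraries, red and blue dots are at least 2-fold higher and lower, the grey band covers differences under 2-fold, and the dotted line is the median of all genes. There are 9 red dots at 30 DAFB, 2 red and 1 blue at 80 DAFB, and 3 red at 170 DAFB.

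Of 7 genes matched to CONSTANS or CONSTANS-LIKE proteins, 6 were expressed at 30 DAFB, of which 4 were higher in RD peel and none was lower, where 25.6% and 6.34% of all genes were. Among the 4 were Cs7g26690, which had been chosen on this stage, and Cs2g12490, which has the same best match. Nothing is therefore read from that count. The median log2 ratio of the 6, Cs7g26690 included, was 1.44, beside 0.48 over all genes tested. Median-adjusted, 3 were higher, beside 13.9% of all genes, and the ratios of CONSTANS-LIKE 1 (Cs5g15940) and CONSTANS-LIKE 4 (Cs7g06840) changed sign, from 0.34 to -0.09 and from 0.35 to -0.08. The second CONSTANS-LIKE 16 gene, Cs2g12490, had 0.64, 3.78, and 0.57 FPKM in CK peel and 6.81, 10.5, and 0.85 FPKM in RD peel. It was higher in RD peel at 30 DAFB (log2 ratio 3.41) and at 80 DAFB (1.47), as Cs7g26690 was at these stages, and was not counted at 170 DAFB because both values lay below 1. CONSTANS-LIKE 2 (Cs6g19280) had 7.1, 35.1, and 0.92 in CK and 20.6, 42.8, and 1.15 in RD peel, and was past 2-fold at 30 DAFB alone (1.54). CONSTANS-LIKE 4 had 61.0, 119.67, and 5.67 in CK and 77.96, 109, and 19.8 in RD peel, and was past 2-fold at maturity alone (1.80).

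From 80 to 170 DAFB, 4 of 6 CONSTANS-LIKE genes were lower in both peels, beside 17.5% of all genes in CK and 17.7% in RD peel. In CK peel the other 2 were higher, and in RD peel 1 was. Those lower were the 2 CONSTANS-LIKE 16 genes, CONSTANS-LIKE 2, and CONSTANS-LIKE 4, with log2 steps between -2.73 and -7.97 in CK and between -2.45 and -5.22 in RD peel. Of these, Cs7g26690 had been chosen with its levels known. CONSTANS-LIKE 13 (Cs5g32530) took the other course, with 8.61, 11.2, and 42.9 in CK and 21.9, 11.65, and 24.7 in RD peel. Like GIGANTEA, it was higher at 170 than at 80 DAFB in both peels. It was past 2-fold between peels at 30 DAFB (log2 ratio 1.35), though not median-adjusted (0.92). The gene matched to CONSTANS itself (Cs5g03300) stayed at or below 0.17 FPKM. Chlorophyll a-b binding proteins, which summed to 4833, 12876, and 125 FPKM in CK peel and to 9912, 11943, and 1201 FPKM in RD peel, shared the low values at maturity with the 4 genes, and their part in these values was not tested.

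Some light receptors set the clock, though not all of those listed here are known to do so. At 30 DAFB 4 of the 6 on the list had more transcript in RD peel by at least 2-fold, while none had less by that margin. Over all genes 25.6% were higher and 6.34% lower at that stage. Cryptochrome-1 (Cs3g18240), a blue light receptor, had 9.24, 34.6, and 21.8 FPKM in CK peel and 36.6, 42.9, and 17.6 FPKM in RD peel. Cryptochrome DASH (Cs7g07450), of a related family of flavoproteins, had log2 ratios of 1.56, -0.05, and 0.89. Phototropin-2 (Cs8g01040), which guides chloroplast movement, had 12.8 FPKM in CK30 and 27.3 in RD30, just past 2-fold. Phytochrome B (Cs9g02220), a red light receptor, had log2 ratios of 1.05, 0.41, and 0.56. Median-adjusted, only cryptochrome-1 (1.55) and cryptochrome DASH (1.13) of the 6 were past 2-fold at 30 DAFB, beside 13.9% of all genes. Of the other light signalling proteins 3 of 9 were higher at that stage, among them SPA1-RELATED 3 (Cs1g07390, log2 ratio 1.24), a partner of the ubiquitin ligase COP1. Median-adjusted, 1 of the 9 was higher, and SPA1-RELATED 3 had 0.81. Of the 21 genes of the light list 13 reached 1 FPKM in CK or RD peel at 80 DAFB and 12 at 170 DAFB. None of these was past 2-fold in either direction. Genes past 2-fold upward in RD peel made up 5.2% of all those tested in the 80 DAFB pair. In the 170 DAFB pair they made up 8.14%. The downward shares for the same pairs were 4.86% and 10.1%. With shares this low and so few listed genes, nothing is read from the lack of light genes past 2-fold.

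FLOWERING LOCUS T (Cs6g05140), which encodes the mobile flowering signal, was nearly absent from young peel and abundant in mature peel. Its FPKM was 0.06, 57.1, and 405 in CK peel and 0.95, 12.99, and 158 in RD peel. It was lower in RD peel at 80 DAFB (log2 ratio -2.14) and at 170 DAFB (-1.36), and at 30 DAFB neither library reached an FPKM of 1. The second gene with an FT match, Cs6g05520, stayed at or below 0.34, and reads shared by the pair cannot be told apart. CYCLIC DOF FACTOR 3 (Cs5g10770), of a family that in Arabidopsis holds repressors of CONSTANS and FT that GIGANTEA helps to remove, had 6.1, 22.3, and 0.92 FPKM in CK peel and 22.3, 22.65, and 3.35 FPKM in RD peel. Its log2 ratios were 1.87, 0.02, and 1.86. CYCLIC DOF FACTOR 2 (Cs6g21400) had 6.98, 22.8, and 6.74 in CK and 13.6, 24.3, and 15.6 in RD peel, and was past 2-fold at maturity alone (1.21).

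Among other output genes, MOTHER of FT and TF 1 (Cs2g06960), of the FT protein family, had 99.0 in CK30 and 49.5 in RD30. As deposited it was at the edge of the rule (2-fold lower within rounding), and its median-adjusted log2 ratio was -1.43. A glycine-rich RNA-binding protein (Cs8g06360) had 163 and 372 at that stage (log2 ratio 1.19, or 0.76 median-adjusted), and the mitochondrial glycine-rich RNA-binding protein 4 (Cs5g16590) 17.3 in CK170 and 36.2 in RD170 (1.07). In all, 3 of 10 output genes were higher and 1 was lower at 30 DAFB, none was higher and 1 was lower of 11 at 80 DAFB, and 3 were higher and 1 was lower of 10 at 170 DAFB. The shares over all genes were 25.6% and 6.34%, 5.2% and 4.86%, and 8.14% and 10.1%. At 30 DAFB the counts were 2 higher and 1 lower when median-adjusted, beside 13.9% and 10.8% of all genes. They were 5 higher and 0 lower with levels divided by those of ACTIN, which raises every ratio at this stage. The share of all genes on the ACTIN scale was not computed. Only some glycine-rich RNA-binding proteins are known as clock outputs, so this list is wider than its name.

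**Figure D5:**
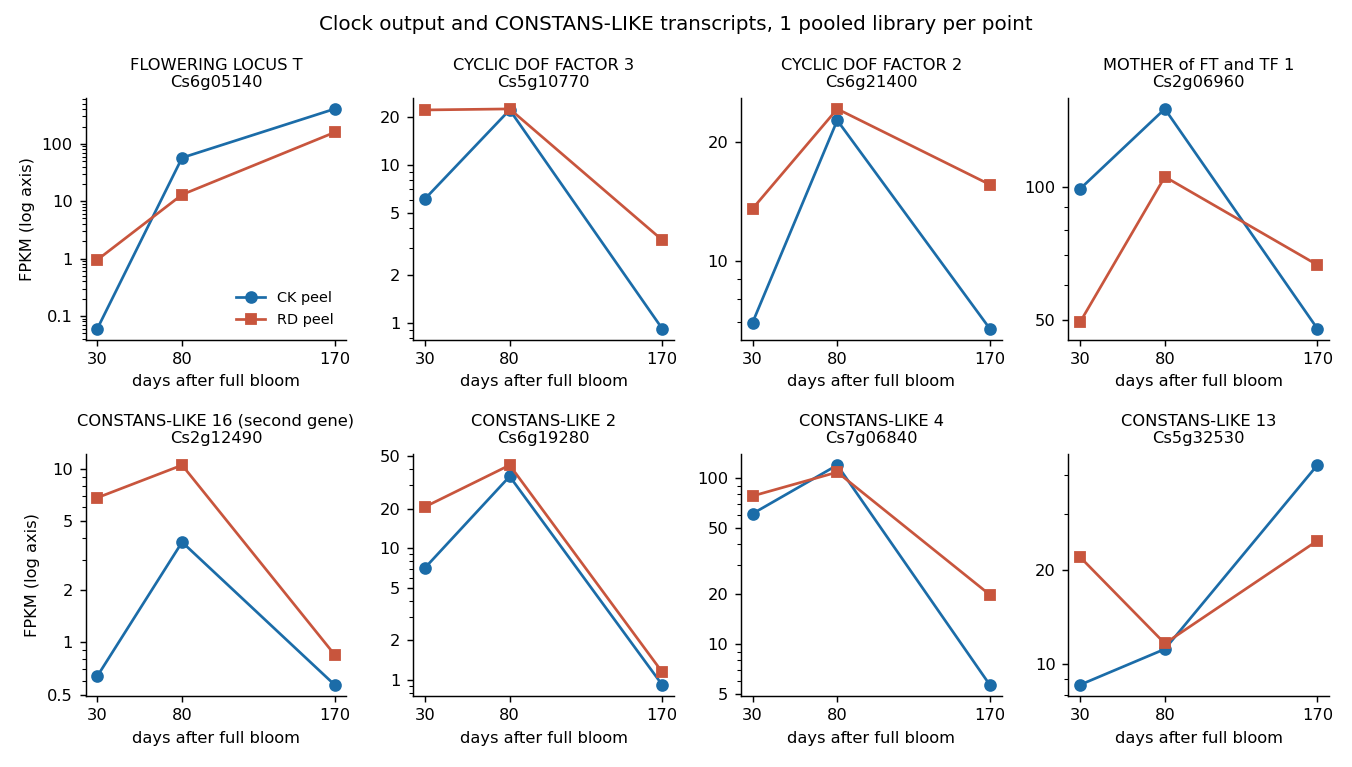
FPKM (log axis) of 4 clock output genes (top row) and 4 CONSTANS-LIKE genes (bottom row) against days after full bloom, circles for CK and squares for RD peel, each point 1 pooled library. FLOWERING LOCUS T was higher at each later stage in both peels, to 405 in CK170 and 158 in RD170. CYCLIC DOF FACTOR 3, CONSTANS-LIKE 2, and CONSTANS-LIKE 4 were highest at 80 DAFB and lowest at 170 DAFB in both peels.

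Genes with the most similar course were sought among 13089 other genes with a mean FPKM of at least 5, by Pearson's r of log2(FPKM + 0.1) over the 6 libraries. With 6 values per gene, r ignores the size of a change, and 78 to 426 genes had an r of at least 0.95 with each of the 5. Closest to LHY were Cs7g31930, a protein without a described function (r = 0.997), auxin response factor 1 (Cs3g01570, 0.996), and a caffeic acid 3-O-methyltransferase (Cs7g25540, 0.994). Of these Cs7g31930 also had a wide range, with 57.9, 109.74, and 2.77 FPKM in CK peel and 36.1, 168, and 8.56 FPKM in RD peel. Closest to GIGANTEA were the undescribed Cs2g19790 (0.999), MEMO1 (Cs7g05840, 0.998), and an aspartokinase (Cs7g04570, 0.996). Closest to LUX were SDA1 (Cs7g09770, 0.994), the zinc finger protein MAGPIE (Cs4g18350, 0.994), and the splicing factor CRS1 (Cs6g20110, 0.992).

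MAGPIE had nearly the same levels as LUX, with 4.67, 11.3, and 14.8 FPKM in CK peel and 28.9, 17.7, and 6.82 FPKM in RD peel. Closest to APRR5 were peroxisome biogenesis protein 3-2 (orange1.1t00030, 0.998) and the undescribed Cs7g02840 (0.998) and Cs2g17510 (0.991). The last had 1.39, 3.72, and 79.2 FPKM in CK peel and 9.27, 1.97, and 59.15 FPKM in RD peel. Closest to CONSTANS-LIKE 16 were an aldo-keto reductase (Cs8g10030, 0.998), the uncharacterized Cs5g10850 (0.995), and an alcohol dehydrogenase (Cs3g17970, 0.995). The lowest r with each was -0.995 for LHY (Cs9g11250, undescribed), -0.996 for GIGANTEA (filament-like plant protein 4, Cs3g25890), -0.98 for LUX (orange1.1t00404, undescribed), -0.99 for APRR5 (Cs2g20310, undescribed), and -0.98 for CONSTANS-LIKE 16 (a carboxylesterase, orange1.1t04182).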

How the data were processed

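Total RNA of each peel pool was enriched for mRNA with oligo(dT) and sequenced on an Illumina platform. Per the methods, reads with adapters, poly-N, or low quality were removed, and the rest were aligned to the sweet orange (Citrus sinensis) genome with Bowtie and BWA. The authors computed FPKM per gene with RSEM and deposited these FPKM values, to 2 decimals, with the best protein match. Versions and genome release are not given in the sources used here. No reads per gene or gene lengths were used, so counting error is unknown. The read-based false discovery rate of the methods was not run, and no test is given because each condition had 1 library.

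FPKM ratios were taken without a pseudocount in Python 3.11.15 with numpy 2.4.6 and pandas 2.3.3. The code for the 2-fold rule was run on simulated data with an assumed noise. That run bears on the code alone, not on the spread between pools or on counting error. Lists were drawn by words in the protein match, and 54.2% of genes have a match without an informative name and could not be listed. From the matches, 3 were left out (2 YUCCA10 genes and a species name). Named genes were the 5 genes, list genes past 2-fold between peels with FPKM of at least 5 in 1 library (up to 10 per list), the 3 most abundant clock and CONSTANS-LIKE genes, and for each of the 5 the 3 genes of highest r and that of lowest r. Other genes were named to complete a role. The genes and lists were chosen with earlier results of these data known. Alternatives were 3 scalings (median of all genes, upper quartile, and ACTIN, Cs7g28810), pseudocounts of 0.1 and 1, other minimum FPKM, and folds of 1.5 and 4.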

Additional observations from a re-analysis of the deposited data

Results flagged for a closer look

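APRR5 (Cs5g16360) differed between RD and CK peel in opposite directions at 2 stages, with a log2 ratio of 3.17 at 30 DAFB and -1.53 at 80 DAFB. Its step from 30 to 80 DAFB also had opposite directions in the peels, 2.17 in CK and -2.53 in RD on the log2 scale. These differences were not tested, because each value compares 2 single pools, and the CK30 (0.45) and RD80 (0.70) values lie below an FPKM of 1.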

How the results depend on the processing

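No paired analysis was possible because each condition had 1 library and the labels give no replicate numbers, and no replicate could be left out. A fit with the 3 stages as pairs of peels was not run. Over the 5 genes, 7 comparisons, and 9 alternatives, 286 of 315 ratios kept their side of the 2-fold rule, 20 no longer met it, 9 newly met it, and none that had met it changed sign. GIGANTEA at 30 DAFB fell short when median-adjusted (0.81) and with upper quartile scaling (0.99), as did CONSTANS-LIKE 16 at 80 DAFB (0.93 and 0.99, and 0.99 with a pseudocount of 1). APRR5 at 80 DAFB was -0.83 with a pseudocount of 1. With FPKM of at least 5, APRR5 between peels at 30 and 80 DAFB, its steps from 30 to 80 DAFB in both peels, and CONSTANS-LIKE 16 at 170 DAFB were no longer counted.

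Of the clock and CONSTANS-LIKE genes, 9 were higher and 0 lower in RD peel at 30 DAFB, and these counts were 14 higher at 1.5-fold, 5 higher at 4-fold, and 1 lower without a filter on low values. The count of higher genes was 7 when median-adjusted, 8 with upper quartile scaling, and 12 with ACTIN scaling. Shares over all genes were computed only at 2-fold, on deposited and median-adjusted values. The counts under other settings therefore have no share beside them, and nothing is read from them. At 80 DAFB, 2 were higher and 1 lower. The count of higher genes was 1 when median-adjusted, with upper quartile scaling, and with a pseudocount of 1, and it was 4 at 1.5-fold, and 0 at 4-fold. The count of lower genes was 0 with a pseudocount of 1, with FPKM of at least 5, and at 4-fold. At 170 DAFB, 3 were higher and 0 lower, with 1 higher at 4-fold, 1 lower without a filter, and 6 lower at 1.5-fold. With a pseudocount of 1, the gene of highest r was another one for 3 of the 5 (LUX, APRR5, and CONSTANS-LIKE 16).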
